A study of Mus musculus with 8 samples.

Results

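The carboxylesterases described here are 10 mouse genes, Ces1c, Ces1d, Ces1e, Ces1f, Ces1g, Ces2a, Ces2c, Ces2g, Ces3a and Ces3b, followed through every probe that the array holds for them. Members were found by gene name or by the transcript accession listed for a probe, which gave 21 of the 48132 probes that carry a gene symbol, and 10 of 21252 symbols. These 10 genes were picked with their behaviour in the present comparison already known, so all their levels and differences below are a description and carry no test. RNA came from whole livers of 8 male mice, 4 injected intraperitoneally with oxaliplatin every week for 6 weeks and 4 labelled control, each hybridised to 1 Agilent one-colour (Cy3) array. Oxaliplatin is a platinum drug given against colorectal cancer, and by the labels the injected mice model hepatic sinusoidal obstruction syndrome, in which the finest blood channels of the liver are damaged. The labels used here state neither strain, age, dose nor what the control mice received. Both groups were total RNA of liver, with no selection of cells.

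Carboxylesterases are serine hydrolases of the endoplasmic reticulum that cut ester, amide and thioester bonds. In liver they activate or clear ester drugs, and several of them hydrolyse stored triglyceride, part of which is packed into very low density lipoprotein (VLDL). The mouse genes arose by repeated tandem duplication: in the RefSeq gene order, Ces1a to Ces1h lie side by side on chromosome 8, and Ces2a to Ces2h, Ces3a, Ces3b and Ces4a form another run on the same chromosome. Close relatives of this kind can be bound by each other's probes, so the sequences come first.

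The Ces3a and Ces3b probes shown next overlap in sequence, and Ces3a has the largest difference of the 10 brightest probes with the scaling and fit used below. The single Ces3a probe and the dimmer of the 2 Ces3b probes, each 60 bases long, have 42 bases in common, and the brighter Ces3b probe is also listed in the deposited files for Ces3a. Capitals mark bases common to both probes within a stretch of 30 bases, 5′ to 3′.
Ces3a probe, bases 10 to 39: cagtccagcACATTAATAAAGCTCTTCAGA
Ces3b dimmer probe, bases 1 to 30: ACATTAATAAAGCTCTTCAGAGGATCTGTT

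The Ces1c and Ces1b probes are shown because the Ces1c probes differ in direction from each other. Ces1b, which is not among the 10, is the close relative of Ces1c that some of these probes resemble. Capitals mark the longest stretch also found in a sequence of the other gene, or the first where stretches tie, as in the second probes. For the brightest probes, capitals mark the end of the Ces1c probe that equals the start of the Ces1b probe.
Ces1c brightest probe, bases 31 to 60: accaaagatggatcttacagaGGAAACTGC
Ces1b brightest probe, bases 1 to 30: GGAAACTGCacacttgtacagtggagatat
Ces1c second probe: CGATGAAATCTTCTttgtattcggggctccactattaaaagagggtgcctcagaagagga
Ces1b second probe: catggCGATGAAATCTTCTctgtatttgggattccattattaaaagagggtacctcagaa
Ces1c dimmest probe: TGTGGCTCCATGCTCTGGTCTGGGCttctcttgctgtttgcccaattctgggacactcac

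The second probes of Ces1c and Ces1b matched at 49 of 55 bases that could be laid over each other (89.1%). The deposited files place the second Ces1c probe at chr8:95624607-95628058 on the minus strand of mm9 and the second Ces1b probe at chr8:95581314-95584247 on the same strand, intervals far longer than 60 bases, so each spans an intron. The brightest Ces1c probe lies at chr8:95622965-95623024 on the minus strand of mm9, and its accession list also names Ces1b. The first 25 bases of the dimmest Ces1c probe occur at the end of a RefSeq window around the Ces1b start site, and the first 24 at the end of the Ces1c window, where both windows stop. That probe therefore begins in sequence that these 2 genes share. Across the 21 member probes, 4 are listed for another gene of the family as well: this Ces1c probe, the brighter Ces3b probe, and 2 Ces2c probes that also name Ces2d-ps, a pseudogene.

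All 21 member probes were well above background on all 8 arrays and none was saturated. Levels are log2 signals minus the 75th percentile of the same array, and a level of 1 probe cannot be set against that of another. Each gene was represented by its brightest probe, and differences are oxaliplatin minus control with the standard error (SE) of the limma fit. In that fit across 13913 genes, 973 were called higher in oxaliplatin livers at an adjusted p under 0.05 (6.99%) and 1617 lower (11.6%), with a median difference of -0.09. By the same rule 4 of the 10 members were called higher (Ces1c, Ces2c, Ces3a and Ces3b) and 0 lower; with normexp background correction 3 were higher and 1 lower, as Ces1c lost its call and Ces1g (-0.91) gained one. Their median difference was 0.59, and 8 of 10 were above 0. Since the genes were picked on this comparison, nothing is read from that count, which was 0 without control 3, without oxaliplatin 3 or without oxaliplatin 4, and 1 without oxaliplatin 2. Groups did not overlap for 3 of the 10, beside 27.7% of all genes.

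**Figure D1:**
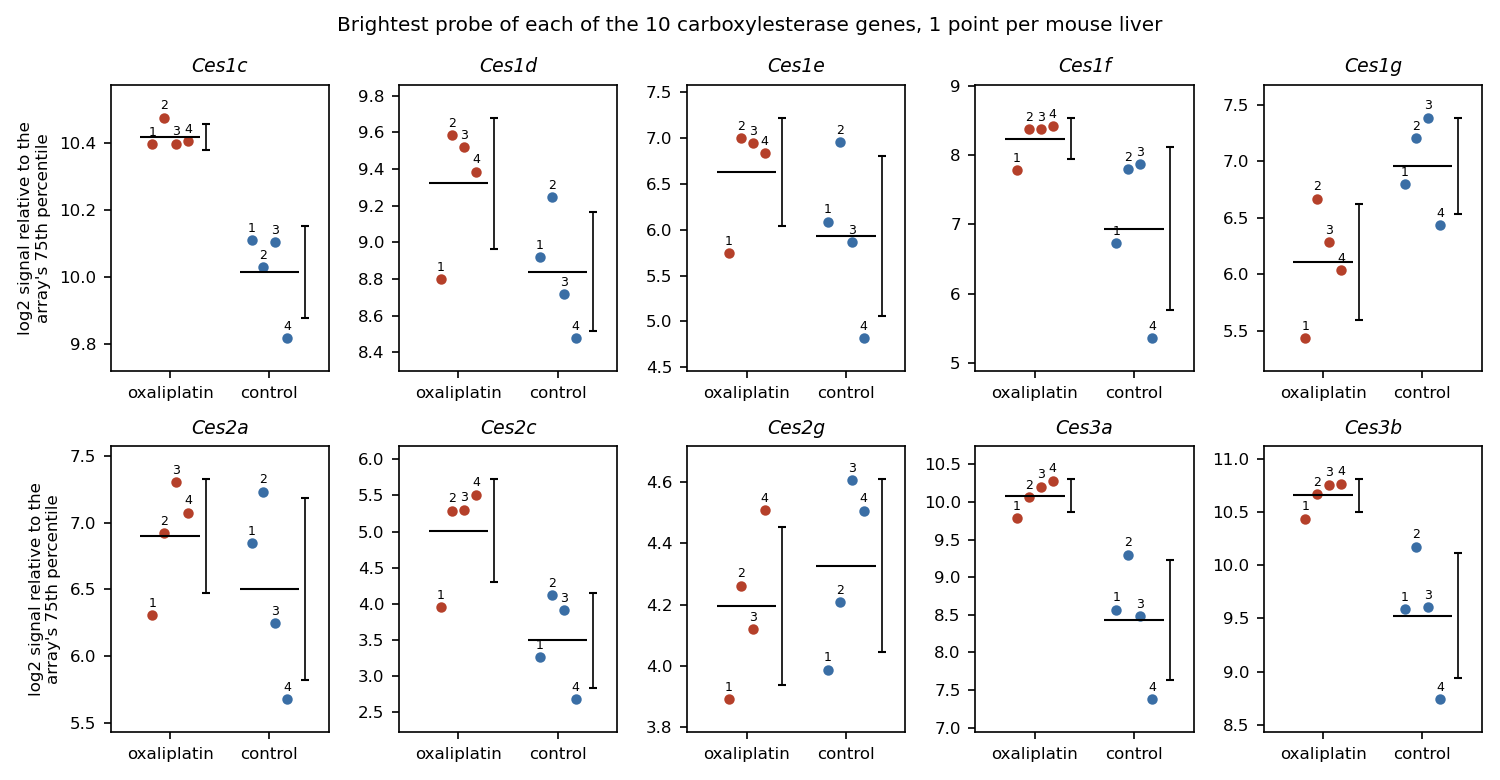
Log2 signal of the brightest probe (vertical axis, relative to the array's 75th percentile, each panel on its own scale) in oxaliplatin livers (left, red) and control livers (right, blue). Points are single livers with their replicate number, horizontal lines are means and vertical bars are SD (n = 4 each). Ces1c, Ces3a and Ces3b show separate groups; in most panels control 4 is the lowest control and oxaliplatin 1 the lowest oxaliplatin liver.

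Of the 10 brightest probes, that of Ces3a differed most with this scaling and fit and all 8 arrays. Ces2c differed more with quantile normalization (1.63 against 1.56) and without oxaliplatin 1 (1.87 against 1.75). Ces3a and Ces3b encode esterases of the liver's endoplasmic reticulum. Ces3a had log2 levels of 9.79, 10.06, 10.20 and 10.28 in oxaliplatin livers, against 8.57, 9.30, 8.48 and 7.38 in control livers. Every oxaliplatin liver was above every control liver, and the 4 controls were spread over a range far wider than the 4 oxaliplatin livers. The difference was 1.65 ± 0.36 (SE, n = 4 each), or 3.14-fold.

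Ces3b stood at 10.44, 10.67, 10.76 and 10.77 in oxaliplatin livers, against 9.59, 10.18, 9.61 and 8.74 in control livers. Again the groups were apart, with control 2 the nearest control and control 4 the farthest. The brighter probe gave a difference of 1.13 ± 0.27 (SE) and the dimmer one, which overlaps the Ces3a probe, 1.86 ± 0.34. Levels on the dimmer probe were 8.73, 9.21, 9.37 and 9.34 in oxaliplatin livers, against 7.36, 8.18, 7.29 and 6.39 in control livers. The order of the controls was the same on the Ces3a probe and the dimmer Ces3b probe, with control 2 highest, then 1, 3 and 4. Because these probes share sequence, they are not separate measurements of the 2 genes.

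Among the Ces2 genes, Ces2c differed most. Ces2c and Ces2a hydrolyse acylglycerols in mouse liver and gut, and the human relative CES2 activates irinotecan, a prodrug given, like oxaliplatin, in colorectal cancer. Ces2c had levels of 3.96, 5.29, 5.30 and 5.51 in oxaliplatin livers, against 3.26, 4.12, 3.91 and 2.68 in control livers. Oxaliplatin 1 lay below control 2, so the groups overlapped, while the other 3 oxaliplatin livers were above all controls. The difference was 1.52 ± 0.42 (SE), or 2.87-fold, and stood at 1.25 without control 4 and 1.87 without oxaliplatin 1. Of 21 alternatives 10 did not call it, among them the omission of any 1 of 6 arrays.

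The other 2 Ces2c probes bracketed this value. A probe that shares 33 bases with the brightest one gave 1.91 ± 0.48 (SE), with levels of 0.91, 2.19, 2.38 and 2.31 in oxaliplatin livers and -0.18, 1.02, 0.41 and -1.11 in control livers. The remaining probe, which spans an intron and is also listed for Ces2d-ps, gave 0.66 ± 0.30. Its groups overlapped, since control 2 at 3.79 lay above oxaliplatin 1 at 3.33. The size of the Ces2c difference thus varied by 1.26 log2 units with the probe, the widest span of any member.

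Ces2a differed less. Its brightest probe had 6.31, 6.92, 7.30 and 7.08 in oxaliplatin livers, against 6.85, 7.23, 6.25 and 5.68 in control livers. The groups overlapped broadly, and the difference of 0.40 ± 0.35 (SE) was close to its error and stood at 0.12 without control 4, 0.64 without control 2 and 0.27 without oxaliplatin 3. The second Ces2a probe gave 0.55 ± 0.29.

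Ces2g, a less studied Ces2 gene, had levels of 3.89, 4.26, 4.12 and 4.51 in oxaliplatin livers, against 3.99, 4.21, 4.61 and 4.51 in control livers. No separation was visible, and the difference was -0.13 ± 0.18 (SE). Its second probe gave 0.21 ± 0.12, so the sign depended on the probe and neither value was far from its error.

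Within the Ces1 genes the members did not move together. Ces1f and Ces1d encode triacylglycerol hydrolases that mobilise stored fat for VLDL in mouse liver. Ces1f had levels of 7.79, 8.37, 8.37 and 8.42 in oxaliplatin livers, against 6.73, 7.79, 7.87 and 5.37 in control livers. Controls 2 and 3 reached the level of oxaliplatin 1, whereas control 4 lay far below all other livers. The difference was 1.30 ± 0.52 (SE) and stood at 0.77 without control 4, 1.58 without control 2 and 1.61 without control 3.

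On the second Ces1f probe the groups did not overlap. Levels were 7.35, 8.15, 8.0 and 7.96 in oxaliplatin livers, against 6.12, 7.08, 7.08 and 4.53 in control livers. The difference was 1.66 ± 0.53 (SE), with control 4 again far below the rest.

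Ces1d had levels of 8.80, 9.59, 9.52 and 9.39 in oxaliplatin livers, against 8.92, 9.24, 8.72 and 8.48 in control livers. Oxaliplatin livers 2 to 4 were above all controls and oxaliplatin 1 was among them, for a difference of 0.48 ± 0.22 (SE). The second Ces1d probe, whose first bases resemble the second Ces1c probe at 31 of 34 positions, gave 0.05 ± 0.18.

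Ces1e, also called egasyn, holds beta-glucuronidase in the endoplasmic reticulum. It had levels of 5.75, 7.0, 6.94 and 6.83 in oxaliplatin livers, against 6.09, 6.95, 5.86 and 4.82 in control livers. Control 2 stood as high as the upper oxaliplatin livers, and the difference of 0.70 ± 0.45 (SE) was not far beyond its error. That difference stood at 0.33 without control 4 and at 1.04 without control 2. The other Ces1e probe gave 1.08 ± 0.43. Gusb, the gene of beta-glucuronidase, was at 4.86, 5.16, 4.89 and 4.85 in oxaliplatin livers and at 4.82, 4.97, 4.42 and 4.58 in control livers, and its difference of 0.24 ± 0.14 did not pass (limma, adjusted p = 0.252).

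Ces1g differed in the other direction, below 0 on both of its probes. It encodes an esterase tied to lipid handling in mouse liver and gut. Ces1g had levels of 5.44, 6.67, 6.29 and 6.04 in oxaliplatin livers, against 6.80, 7.2, 7.39 and 6.43 in control livers. Oxaliplatin livers 1, 3 and 4 were below all controls and oxaliplatin 2 was above control 4, for a difference of -0.85 ± 0.29 (SE). The second Ces1g probe overlaps the first by 40 bases and gave -0.82 ± 0.26, so the 2 values are not separate measurements.

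**Figure D2:**
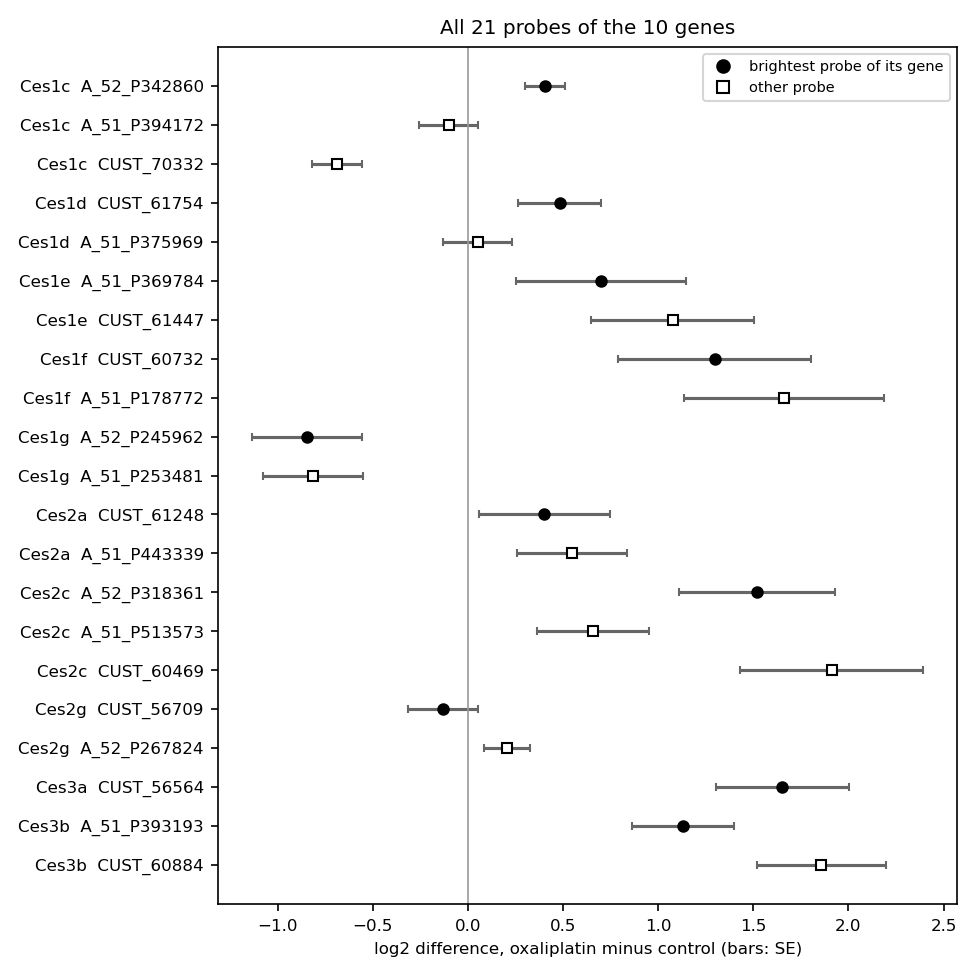
Log2 difference, oxaliplatin minus control (horizontal axis), for all 21 probes, with rows labelled by gene and array probe name. Filled circles are the brightest probe of a gene, open squares the other probes, and bars the SE from the fit across all probes (n = 4 each). The 3 Ces1c probes run from -0.69 to 0.40, while both Ces1g probes lie below 0 and all Ces3 probes above 1.

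Ces1c encodes the esterase that mice, unlike humans, secrete into blood plasma. Its brightest probe had 10.40, 10.48, 10.40 and 10.40 in oxaliplatin livers, against 10.11, 10.03, 10.10 and 9.82 in control livers. All oxaliplatin livers were above all controls, and the means differed by 0.40 ± 0.10 (SE), or 1.32-fold. That difference shrank to 0.15 with normexp, 0.23 with quantile normalization and 0.24 with the submitters' processed values, none of which called it. The second probe had 9.17, 9.54, 9.33 and 9.14 in oxaliplatin livers and 9.41, 9.56, 9.59 and 9.03 in control livers. Those groups overlapped fully, with a difference of -0.10 ± 0.16. The dimmest probe had 3.17, 3.37, 3.12 and 3.1 in oxaliplatin livers, against 3.84, 3.83, 4.16 and 3.69 in control livers, which put every oxaliplatin liver below every control. Its difference was -0.69 ± 0.13 (SE).

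The 3 Ces1c probes therefore gave 3 different answers, and 2 of them separated the groups in opposite directions. With the mean of the 3 probes in place of the brightest, the Ces1c difference was -0.13, so the sign for this gene depended on the choice of probe. The dimmest Ces1c probe begins, as described above, in sequence that Ces1b shares. Ces1b fell in oxaliplatin livers, with 5.75, 6.09, 5.79 and 5.88 against 6.25, 6.36, 7.39 and 7.2 in control livers. The groups did not overlap, and the difference was -0.92 ± 0.26 (SE, limma, adjusted p = 0.0446), which 13 of 21 alternatives did not call, among them 4 other scalings or sources of values, the run name as a covariate and the omission of any 1 of 6 arrays. The second Ces1b probe gave -0.90 ± 0.25. Whether Ces1b transcript binds the Ces1c probes was not tested.

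**Figure D3:**
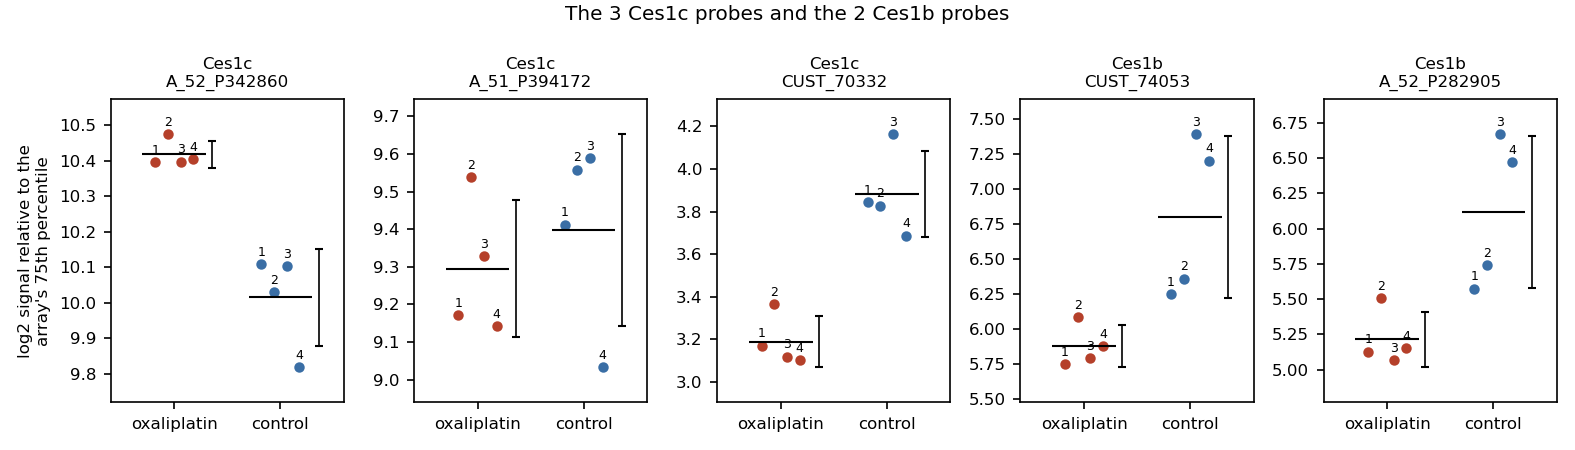
Log2 signal (vertical axis, relative to the array's 75th percentile, each panel on its own scale) of the 3 Ces1c probes and the 2 Ces1b probes in oxaliplatin livers (left, red) and control livers (right, blue). Points are single livers with replicate numbers, lines are means and bars SD (n = 4 each). The brightest Ces1c probe is higher in every oxaliplatin liver, while the dimmest Ces1c probe and both Ces1b probes are lower.

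Counted by probe, 7 of the 21 were called in the fit across all 54636 probes, in which 18.4% were. Of the 7, 6 were higher and 1 lower (the dimmest Ces1c probe), beside 7.42% and 11% of all probes. Of the 9 members with several probes, 7 had probes of 1 sign, and Ces1c and Ces2g had mixed signs. Ces3a has 1 probe.

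The livers of a group were not alike in these genes. Among the 10 brightest probes, oxaliplatin 1 was the lowest oxaliplatin liver in 10, as it was in 46% of all genes, and control 4 the lowest control in 9, as it was in 38.9% of all genes. The exception is Ces2g, whose lowest control was control 1. Median SDs of the members were 0.33 in oxaliplatin livers and 0.62 in control livers, against 0.18 and 0.23 over all genes. The control SD was the larger of the 2 in 7 of 10 members and in 64.7% of all genes.

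**Figure D4:**
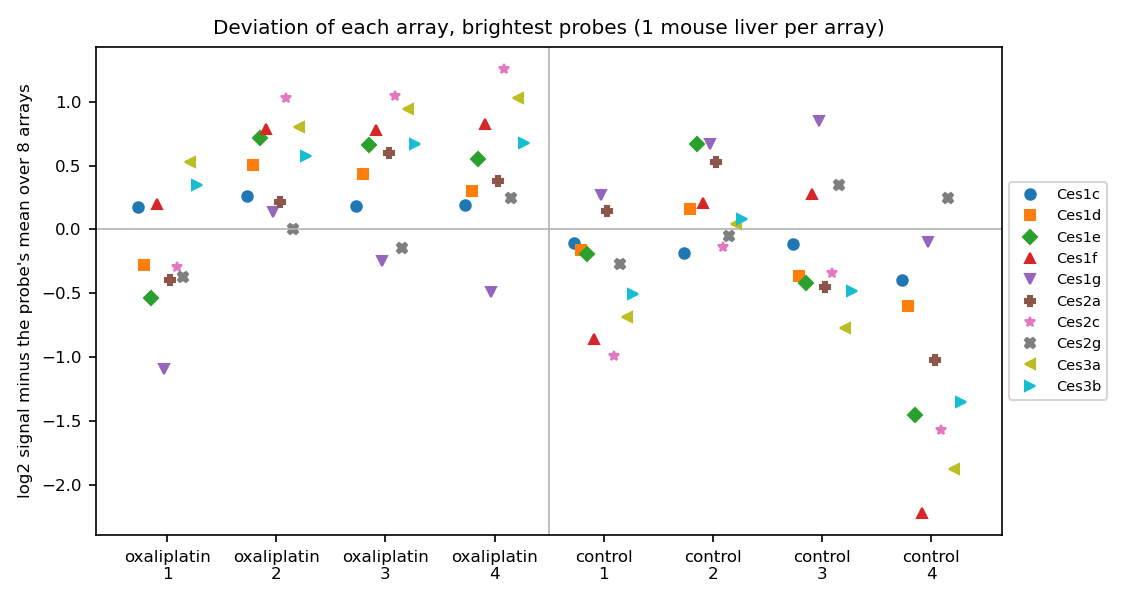
Deviation of each array from the probe's mean over 8 arrays (vertical axis, log2) for the brightest probe of each member, oxaliplatin livers on the left and control livers on the right, with 1 marker shape and colour per gene. Control 4 lies lowest among the controls for 9 genes, and oxaliplatin 1 lowest among the oxaliplatin livers for 10.

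Ces3b followed Ces3a most closely among the members, with a Pearson r of 0.999 over the 8 arrays and 0.997 after the group means were taken off. Ces1f had 0.90 and 0.87, and Ces1e 0.83 and 0.92. Ces1g had -0.40 over the arrays, but 0.58 within the groups. Ces2g had -0.33 and -0.19. These values describe 8 arrays that share 2 slides, and the Ces3b probe used is also listed for Ces3a.

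Outside the members, 5 of 13903 genes with a value on every array were taken by the highest r with Ces3a. They were Saysd1 (r = 0.994, and 0.985 within groups), Asb13 (0.993 and 0.975), Mup21 (0.989 and 0.960), Gm20498 (0.988 and 0.964) and Slco1a1 (0.988 and 0.958). Mup21 is a major urinary protein gene and Slco1a1 a bile salt and steroid uptake carrier. Slco1a1 was higher in oxaliplatin livers by 5.95 ± 1.11 (SE, limma, adjusted p = 0.0126) and Mup21 by 4.10 ± 0.89 (adjusted p = 0.0194). Saysd1, at 0.29 ± 0.10, did not pass (adjusted p = 0.0801). These genes were ranked by r over both groups with Ces3a, which was itself picked on the same comparison. A group difference is therefore partly built into the ranking, so these adjusted p-values are descriptive and nothing is concluded from them.

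RefSeq windows (GRCm38.p6), which run from 250 bases before to 50 after a start site, were at hand for 7 members, Ces1c, Ces1e, Ces1g, Ces2a, Ces2c, Ces2g and Ces3b. The next sequences are the 250 bases before the start for Ces1c and Ces1b, whose brightest probes moved apart, and for Ces3b. Capitals mark motifs that the paragraph after the sequences spells out, read on either strand.
Ces1c, chr8:93131284-93131533, minus strand: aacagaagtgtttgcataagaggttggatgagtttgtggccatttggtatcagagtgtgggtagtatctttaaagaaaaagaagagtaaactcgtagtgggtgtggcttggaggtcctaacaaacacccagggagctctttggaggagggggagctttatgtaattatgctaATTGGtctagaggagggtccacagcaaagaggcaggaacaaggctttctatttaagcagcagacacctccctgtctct
Ces1b, chr8:93079941-93080190, minus strand: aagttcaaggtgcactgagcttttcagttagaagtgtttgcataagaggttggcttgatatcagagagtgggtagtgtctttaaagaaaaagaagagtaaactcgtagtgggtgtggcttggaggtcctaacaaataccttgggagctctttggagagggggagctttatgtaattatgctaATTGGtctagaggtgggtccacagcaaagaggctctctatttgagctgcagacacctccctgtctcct
Ces3b, chr8:105083505-105083754, plus strand: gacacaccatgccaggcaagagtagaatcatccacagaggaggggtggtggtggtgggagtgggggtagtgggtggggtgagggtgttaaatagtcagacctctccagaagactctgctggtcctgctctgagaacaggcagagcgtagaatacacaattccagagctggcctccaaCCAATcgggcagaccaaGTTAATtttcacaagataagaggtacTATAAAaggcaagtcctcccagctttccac

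The whole windows of Ces1c and Ces1b matched at 254 of 273 aligned bases (93.0%). The next highest of the 52 pairs of family windows that aligned over at least 200 bases was Ces2c with Ces2g at 79.0%. Of motifs searched on both strands, CCAAT was in 6 of the 7 member windows (not Ces1e) and in 37.4% of all 32851 windows. It was also found in 4 of the 8 other family genes with a window. TATAAA was in the Ces1g and Ces3b windows, in that of Ces1h outside the members, and in 13.6% of all windows. GTTAAT, the core of hepatocyte nuclear factor 1 sites, was in the Ces3b and Ces5a windows and in 7.1% of all. AGGTCA, the core of many nuclear receptor sites, was in the Ces2a window, in those of Ces2h and Ces4a, and in 16.3% of all. CAAAGTCCA, searched for hepatocyte nuclear factor 4, was in no family window and in 0.5% of all. A match is a string of letters and does not show binding.

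Among the carboxylesterase genes outside the 10, Ces4a and Ces2f rose and Ces1b fell. This was 2 higher and 1 lower of 6 tested, beside 6.99% and 11.6% of all genes, with a median difference of 0.91. Ces4a had 2.05, 1.93, 3.43 and 2.80 in oxaliplatin livers, against -0.66, -0.11, -0.06 and 1.59 in control livers. All oxaliplatin livers were above all controls, although control 4 came near. The difference was 2.36 ± 0.51 (SE, limma, adjusted p = 0.0195), and 1.41 with normexp background correction, still called. The second Ces4a probe was well above background in 1 of 4 controls, so no size is taken from it. The call was lost without control 3, oxaliplatin 3 or oxaliplatin 4. Ces2f had -0.08, 0.28, 0.66 and 1.21 in oxaliplatin livers, against -0.85, -0.71, -2.01 and -1.73 in control livers, where 2 of 4 controls were well above background. The groups were apart, and their means differed by 1.84 ± 0.37 (limma, adjusted p = 0.0151). With controls this near background the size is uncertain: normexp gave 0.66, still called.

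Ces2b and Ces2e, neighbours of Ces2c, did not pass at the gene level. Ces2b was at 3.90, 5.14, 5.33 and 5.48 in oxaliplatin livers and at 3.19, 4.23, 3.99 and 2.66 in control livers, with the same livers high and low as in Ces2c. Its difference of 1.44 ± 0.44 (SE) had an adjusted p of 0.0539 in limma, while in the fit across all probes both measured Ces2b probes were called. Ces2e differed by 0.37 ± 0.30 (adjusted p = 0.407) and Ces1a by -0.54 ± 0.27 (adjusted p = 0.182). Ces2h and Ces5a had probes well above background on too few arrays to be tested, and Ces1h and Ces2d-ps had no probe of their own.

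Hydrolases of other families, which share substrates with carboxylesterases, gave 0 of 19 tested genes past the threshold, beside 18.6% of all genes in either direction, with a median difference of 0.14. At an unadjusted p under 0.05 there were 5 of 19, beside 36% of all genes, and normexp background correction called 5 after adjustment. Aadac, an arylacetamide deacetylase that also acts on liver triglyceride, had 9.43, 9.66, 9.84 and 9.55 in oxaliplatin livers, against 9.21, 9.41, 9.43 and 8.82 in control livers. These groups met without overlapping, and their means differed by 0.40 ± 0.16 (SE, limma, adjusted p = 0.110). Lipc, hepatic lipase, differed by 0.93 ± 0.45 (adjusted p = 0.173), with control 4 at 1.43 and the other controls between 2.85 and 3.72. Nearer the threshold in limma were Lipg at 1.68 ± 0.52 (adjusted p = 0.0568) and Nceh1 at 1.01 ± 0.31 (adjusted p = 0.0543). Pon3, at -0.45 ± 0.14 (adjusted p = 0.0524), went the other way. Groups did not overlap for Lipg and Pon3.

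VLDL assembly genes gave 1 higher and 2 lower of 11, beside 6.99% and 11.6% of all genes, with a median difference of -0.22. Mttp, the microsomal transfer protein that loads lipid onto apolipoprotein B, rose. It had 7.26, 7.25, 7.46 and 7.06 in oxaliplatin livers, against 6.86, 6.74, 6.31 and 6.36 in control livers, all oxaliplatin livers above all controls, for 0.69 ± 0.15 (SE, limma, adjusted p = 0.0215). With the mean of the Mttp probes the difference was 0.34 and did not pass, nor did it without control 3, oxaliplatin 2 or oxaliplatin 3. Tm6sf2, which helps lipidate VLDL, fell by 0.65 on the log2 scale (SE 0.10, adjusted p = 0.00715). Soat2, which makes cholesteryl ester for lipoproteins, fell by 0.85 (SE 0.16, adjusted p = 0.0139). Apob itself differed by -0.03 ± 0.11 (adjusted p = 0.886).

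Of 7 regulators and partners, 1 passed, beside 18.6% of all genes in either direction, and its direction was lower. Nr1i3 encodes the constitutive androstane receptor, a drug sensor reported to act on carboxylesterase genes in mouse liver. Nr1i3 had 5.69, 5.98, 5.93 and 5.48 in oxaliplatin livers, against 6.34, 6.80, 6.84 and 6.61 in control livers. All oxaliplatin livers were below all controls, and their mean was lower by 0.88 on the log2 scale (SE 0.16, limma, adjusted p = 0.0109). Nr1i2, the pregnane X receptor, differed by 0.19 ± 0.15 (adjusted p = 0.404), and Ppara, a fatty acid sensor, by 1.01 ± 0.34 (adjusted p = 0.0725).

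**Figure D5:**
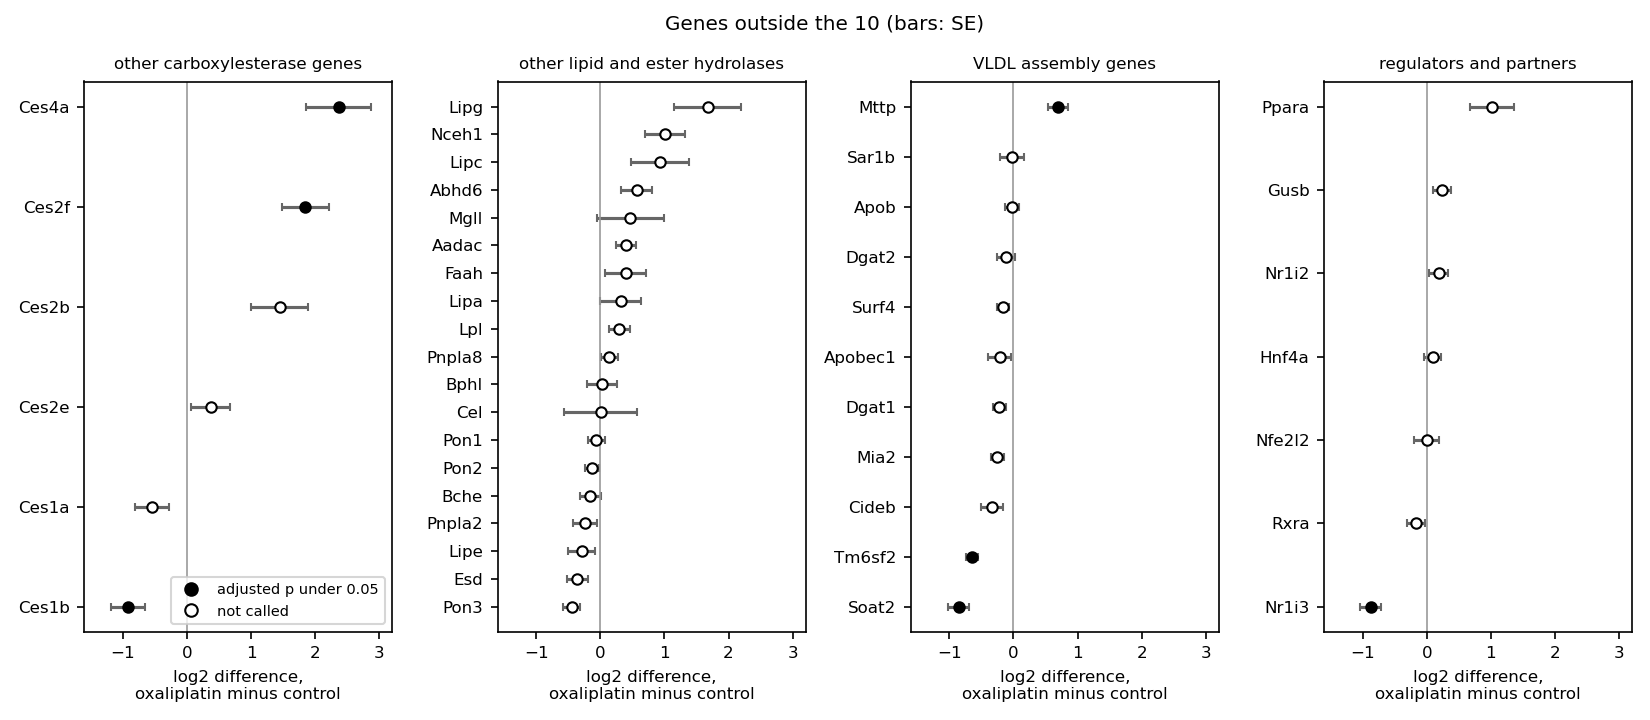
Log2 difference, oxaliplatin minus control (horizontal axis), for the tested genes of 4 lists outside the 10 members, with genes as rows. Filled circles passed an adjusted p under 0.05 in limma, open circles did not, and bars are SE (n = 4 each). Ces4a and Ces2f lie highest among the other carboxylesterases, no hydrolase passed, and Nr1i3 is the lowest regulator.

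Between 27.2% and 40.9% of the 149782 non-control probes were well above background on a given array, with oxaliplatin 2 the lowest and control 1 the highest. Each of the 2 slides held 1 group, so slide and group cannot be told apart. Oxaliplatin 1 and 2 differ from the remaining 6 arrays in a run name that is read from the file names alone and whose meaning is not stated. Within those 6 the differences were 1.81 for Ces3a, 1.24 for Ces3b, 1.91 for Ces2c, 0.39 for Ces1c and -0.79 for Ces1g, and the 2 arrays of the other name are oxaliplatin livers alone. In the same 6 arrays Ces2f and Tm6sf2 still passed, whereas Ces1b (-0.97), Ces4a (2.93), Mttp (0.69), Soat2 (-0.85) and Nr1i3 (-0.94) did not. In whole liver, fewer cells of a type and less RNA per cell cannot be told apart.

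Beside the marker counts that follow, 6.99% of all genes were called higher and 11.6% lower. All 6 hepatocyte markers were well above background on every array, and 3 of them were higher in oxaliplatin livers: Alb by 0.56, Ttr by 1.29 and Serpina1c by 0.41. Their mean level was between 9.75 and 9.98 in oxaliplatin livers, against 9.34 to 9.57 in control livers. Sinusoidal endothelial markers gave 1 lower of 4 (Lyve1, by -1.49), stellate cell markers 1 lower of 4 (Dcn), and cholangiocyte markers 0 of 4. None of the 5 Kupffer cell markers passed. All 5 differences were above 0, with a median of 0.59, and the groups did not overlap for Clec4f and Vsig4, beside 27.7% of all genes. The mean level of the 5 was 4.87 to 5.85 in oxaliplatin livers, against 4.38 to 5.15 in control livers. Markers of blood and of neighbouring organs were higher in part, with Alas2 and Hbb-bs among 3 erythroid genes, Cd3e among 3 leukocyte genes, both measured pancreas genes (Cela2a and Pnlip) and 1 of 2 intestinal genes (Lct). The remaining erythroid gene, Slc4a1, differed by -0.37 and the remaining intestinal gene, Fabp2, by 0.31, and neither passed. Mean levels were 5.40 to 6.35 in oxaliplatin livers and 4.13 to 5.42 in control livers for the erythroid list, 1.5 to 2.04 and -0.11 to 1.04 for the pancreas list, and 5.31 to 5.70 and 3.49 to 4.25 for the intestinal list. Those of the endothelial list were 5.27 to 5.76 in oxaliplatin livers and 5.71 to 5.95 in control livers. Of its genes only Lyve1 was clearly lower. Stab2 differed by 0.31, Clec4g by -0.0003 and Kdr by -0.01, and none of these passed. The part of these markers in the carboxylesterase differences was not tested.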

How the data were processed

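The program that read the scans is Feature Extraction 12.0.3.1 per the file headers, while version 10.7 and limma are given by the submitters' processing notes. The deposited processed signal is a linear fluorescence intensity, with the local background taken off and no scaling to other arrays, per the file headers. Mean signal and local background are deposited as intensity too, and the deposited flags of 0 or 1 mark spots well above background, saturated or outlying. The authors' series matrix holds log2 values whose scaling between arrays is not given in the sources used here.

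From these, the log2 processed signal minus each array's 75th percentile over 149782 non-control probes was computed. Probes well above background on at least 4 of 8 arrays were kept (54636). Names came from RefSeq accessions (47985 of 48257 matched, GRCm38.p6, names only). The brightest probe stood for a gene (13913 genes). Groups were compared with lmFit and eBayes (limma 3.58.1 under R 4.3.3, with 6 residual and 2.37 prior degrees of freedom), and p-values were adjusted by Benjamini-Hochberg over every gene, or every probe, at a threshold of 0.05. Biological replicates are as the labels state, and their number, 4 a group, limits the precision. Probe positions are on mm9 as deposited. The fit was tested on simulated data.

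Members and lists were chosen with earlier results of these data known. Named are all member probes, every other carboxylesterase gene, up to 6 called genes per list, taken by adjusted p, 6 preset genes (Aadac, Lipc, Mttp, Nr1i3, Nr1i2 and Gusb), and the 5 genes most like the member with the largest difference. Apob, Ppara, Lipg, Nceh1 and Pon3 were added after their values were seen, as were the markers Stab2, Clec4g, Kdr, Reln, Slc4a1 and Fabp2. Alternatives covered background correction (normexp, offset 50), scaling, source of values, filter, variance model, choice of probe, run name, replicate number and each array left out. Each slide holds 1 group, so no slide term could be fitted. Tables were read with pandas 2.3.3 and numpy 2.4.6 under Python 3.11.15, and plots drawn with matplotlib 3.10.9.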

Additional observations from a re-analysis of the deposited data

Results flagged for a closer look

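In groups of 4 livers, a sample was singled out where its gap to the nearest of the others, divided by the group's range, was above Dixon's critical value for 4 samples, which chance gives in about 1 of 20 groups. This happened in 6 of 54 groups, all of them oxaliplatin livers. In 5 of the 6 the liver was oxaliplatin 1, as the lowest: on both Ces1e probes (5.75 on the brightest and 5.66 on the other), on the brightest Ces1f probe (7.79), and on the brightest Ces2c probe (3.96) and the Ces2c probe that overlaps it (0.91). The sixth was oxaliplatin 2, the highest on the brightest Ces1c probe (10.48), in a group whose SD was 0.04. These probes are not independent of each other, and oxaliplatin 1 was the lowest oxaliplatin liver in 46% of all genes.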

How the results depend on the processing

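With 4 livers a group, calls of the members were not stable: over 21 alternatives, 14 called 3 or 4 of the 10, 1 called 1 and 6 called 0. All called members were higher, except that normexp called Ces1g lower (-0.91) beside 3 higher, and centring over all probes called Ces1g (-1.47) and Ces2g (-0.76) lower beside 1 higher. Leaving out each array in turn gave 0 to 4 members called, 3 to 8 of 21 member probes, 1014 to 2322 of all genes, 1 to 4 other carboxylesterases, 0 to 3 other hydrolases, 2 to 3 VLDL genes and 1 to 2 regulators. Run name as a covariate called 0 members, 2 member probes, 920 genes and 1 VLDL gene. The 6 arrays of the first run name called 0 members, 2 member probes, 516 genes, 1 other carboxylesterase, 1 VLDL gene and 0 regulators, with fewer samples. A replicate block called 0 members, 2 member probes, 529 genes, 1 other carboxylesterase and 1 VLDL gene. Same-numbered livers did not deviate together (r from -0.32 to -0.08). Differently numbered livers ranged from -0.39 to 0.44, so this check cannot decide whether the numbers pair them. Normexp called 5 other hydrolases, 5 VLDL genes and 2 regulators. For other hydrolases, quantile normalization, the submitters' values and the mean of probes each called 1, no filter 2, and the percentile over detected probes, the strict filter and an intensity trend 3 each. No filter called 4114 of 21252 genes. Median centring was run over kept probes, since on every array most probes were not well above background. Centring over all probes was added after seeing the data. That setting moved the median gene to -0.71 and called 9917 genes, 8 hydrolases, 10 VLDL genes and 5 regulators. It turned Ces1c (-0.22), Ces1d (-0.15) and Ces2a (-0.23), while the mean of probes turned Ces1c (-0.13) and Ces2g (0.037). No other direction of a member changed. Of all genes called, 37.6% were higher, against 20.8% with normexp, 50% with quantiles, 47.7% with median centring, 49.3% with the submitters' values and 60.5% with the percentile over detected probes, which moved the median gene to 0.02. The causes of these changes were not tested.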

Other observations

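Between the mm9 positions of the Ces1e and Ces1f probes on chromosome 8, the deposited files list 3 probes named by a genomic interval on the minus strand, with no gene named for them. They are chr8:95739808-95743234, chr8:95741781-95743234 and chr8:95756092-95769839. The first was well above background on 3 of 4 oxaliplatin and 4 of 4 control arrays, and the others on all 8. In the fit across all probes they differed by -0.33 ± 0.15, -0.21 ± 0.12 and -0.10 ± 0.14 (SE, oxaliplatin minus control), and none passed (limma, adjusted p = 0.148, 0.234 and 0.648). Their neighbours Ces1e and Ces1f had differences above 0 on all 4 probes; the contrast between them was not tested.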
